A study of Homo sapiens with 12 samples.

Results

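The ZFP36 family of AU-rich decay factors is described here together with the 2 AU-rich binding proteins most often set beside it. The members are 5 genes picked by symbol from the 57704 genes of the count table: the family genes ZFP36, ZFP36L1 and ZFP36L2, and ELAVL1 and KHSRP. They were picked with results of these data known, ZFP36L1 being among the largest relative rises, so their own values and fold changes are given as a description, without a p-value. HEK293 is an established human embryonic kidney line, and the cells used carried a stably expressed intron-DARP-EGFP reporter in every library of both groups. In 6 libraries the cells had received pooled siRNAs against SUPT4H1, and in 6 they had received scrambled siRNAs, each at 100 nM for 72 hours. SUPT4H1 encodes the small subunit of DSIF, a factor that travels with RNA polymerase II during elongation. All 12 transfections started from 1 culture, so errors cover differences among transfections, not among cultures. Messenger RNA 3′ ends were counted (QuantSeq, Lexogen), so a transcript contributes tags from its polyadenylated end whatever its length. Levels are counts per 1000000 endogenous counts after scaling by the trimmed mean of M values (CPM).

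AU-rich elements are short runs of A and U in 3′ untranslated regions (3′ UTRs) that mark an mRNA for fast decay. ZFP36 (tristetraprolin), ZFP36L1 and ZFP36L2 bind the word UAUUUAU through tandem CCCH zinc fingers and bring the CCR4-NOT deadenylase to the mRNA, which shortens its poly(A) tail and lowers its level. KHSRP (KSRP) binds AU-rich elements through KH domains and brings in the exosome and the deadenylase PARN, while ELAVL1 (HuR) binds U- and AU-rich sequence through RNA recognition motifs and mostly stabilises its targets. Kinases of the p38 and MK2 pathway and AKT phosphorylate the family proteins, 14-3-3 proteins then bind them, and decay slows. The mRNAs of several of these factors hold AU-rich words themselves.

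In GENCODE release 29 (GRCh38) the annotated 3′ UTRs of 4 of the 5 members held the word UAUUUAU, written TATTTAT as DNA and searched on the transcribed strand only. It occurred 3 times in the 713-base UTR of ZFP36, 3 times in the 1871 bases of ZFP36L1, 3 times in the 1917 bases of ZFP36L2, 5 times in the 4904 bases of ELAVL1 and 0 times in the 764 bases of KHSRP. Each of the 4 UTRs with the word held 1 copy of its longer form with a further U at either end, which overlaps the short word by construction. Of 10073 genes with a mean of at least 5 CPM and an annotated UTR, 36.6% held the short word and 9.63% the longer one. The sites below are shown because they are the sequences that the family proteins are known to bind, in the mRNAs of the factors themselves. Capitals mark TATTTAT, and all run 5′ to 3′ on the transcript strand. The first line is the only ZFP36 copy of the longer form, the next 3 lines are all copies in ZFP36L1 (the last of them the longer form), and the line after them is the longer form in ZFP36L2.

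ZFP36, chr19:39409199-39409221, plus strand: gacgacttTATTTATtctaatat

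ZFP36L1 word 1, chr14:68788339-68788361, minus strand: tcaaaacgTATTTATtgccaaac

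ZFP36L1 word 2, chr14:68788297-68788319, minus strand: tttgttcaTATTTATcgggatga

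ZFP36L1 word 3, chr14:68788080-68788102, minus strand: tgttggatTATTTATtttagaaa

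ZFP36L2, chr2:43223451-43223473, minus strand: atttaactTATTTATtatcttgt

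ELAVL1, chr19:7961834-7961862, minus strand: ataccTATTTATgTATTTATTTATtgaag

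In ELAVL1 the words stood together: 3 of its 5 copies lay within 29 bases, where the last pair shares 3 bases, and the other 2 began before that stretch, the nearer one reaching into its first bases. In ZFP36L1 they were spread, beginning at bases 1180, 1222 and 1439 of the UTR, the last of them 433 bases from its annotated end. In ZFP36 they began at bases 493, 508 and 533, within the last 221 bases of its UTR. These are matches of letters in an annotation, and no binding was measured in these libraries.

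The target of the siRNAs, SUPT4H1, was at 20.8 ± 1.79 CPM with SUPT4H1 siRNA and at 184 ± 8.95 CPM with scrambled siRNA (SD, n = 6 each). Endogenous counts summed to 6591194 to 11366971 per library with SUPT4H1 siRNA and to 7337033 to 20269171 with scrambled siRNA. Of 8 HEK293 markers 6 were above 5 CPM on average (KRT8, KRT18, VIM, CDH2, NEFL and LHX1), and all markers of leukocytes, endothelium and hepatocytes were under 1 CPM, while 1 of 5 fibroblast markers, COL1A1, was above 5 CPM. SUPT4H1 siRNA replicate 6 stood apart from its group: on the second principal component (17.4% of the variance) it was at 35.13, against −18.14 to −3.77 for the other SUPT4H1 libraries. Relative log2 fold changes of ZFP36L1, ZFP36L2, ELAVL1 and KHSRP, and of named genes that are highest in it, are therefore also given without it. Scrambled replicate 2 was at 20.71, against −7.10 to 7.97 for the other scrambled libraries. Without that library ZFP36L1 had a relative log2 fold change of 1.79, ZFP36L2 of −0.13, ELAVL1 of 0.36 and KHSRP of 0.18. Of 13820 genes tested in relative abundance, 40.1% were called (quasi-likelihood test of edgeR with Benjamini-Hochberg adjustment, adjusted p under 0.05), 20.3% as risen and 19.8% as fallen. The median log2 fold change of all genes was 0.00.

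ZFP36L1 was the member whose level differed most between the groups. It lies on chromosome 14 from 68787660 to 68796253 on the minus strand (ENSG00000185650). Its level ran from 139 to 181 CPM with SUPT4H1 siRNA (median 148) and from 33.3 to 50.4 CPM with scrambled siRNA (median 44.6). All 6 SUPT4H1 libraries lay above all 6 scrambled libraries, with a wide gap between the groups. The means were 154 ± 15.7 CPM with SUPT4H1 siRNA and 43.6 ± 5.83 CPM with scrambled siRNA (SD, n = 6 each), a 3.55-fold difference, or 1.83 on the relative log2 scale (SE 0.09). Only 18 of 13820 genes had a higher relative log2 fold change. Among the SUPT4H1 libraries the highest value was that of replicate 6, and without that library the log2 fold change was 1.75. Within both groups the spread was moderate, with a coefficient of variation of 10.2% in the SUPT4H1 libraries and 13.4% in the scrambled libraries.

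ZFP36L2, the closest relative of ZFP36L1 in sequence and binding, differed by less than the spread between libraries. It lies on chromosome 2 from 43222402 to 43226609 on the minus strand (ENSG00000152518). Its level was 26.3 to 37.6 CPM with SUPT4H1 siRNA (median 34.1) and 31.1 to 39.8 CPM with scrambled siRNA (median 35.5). The groups overlapped almost completely, and the lowest of all 12 values was that of SUPT4H1 replicate 6. The means were 33.5 ± 4.05 CPM with SUPT4H1 siRNA and 35.5 ± 3.34 CPM with scrambled siRNA (SD, n = 6 each), and the relative log2 fold change was −0.08 (SE 0.10), or −0.04 without SUPT4H1 replicate 6.

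ZFP36, the founding member and an early-response gene in many cell types, was close to the limit of detection in these cells. It lies on chromosome 19 from 39406813 to 39409412 on the plus strand (ENSG00000128016). In all, 48 tags were counted over the 6 SUPT4H1 libraries and 89 over the 6 scrambled libraries. Levels were 0.407 to 1.48 CPM (median 0.796) with SUPT4H1 siRNA and 0.130 to 1.55 CPM (median 0.982) with scrambled siRNA, with full overlap. It was the only member below the filter on low counts, and fitted without that filter its relative log2 fold change was −0.15 with an SE of 0.39. That value moved with single libraries, to −0.01 without SUPT4H1 replicate 3 and to −0.38 without scrambled replicate 5, so at this depth no direction is given for ZFP36.

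**Figure D1:**
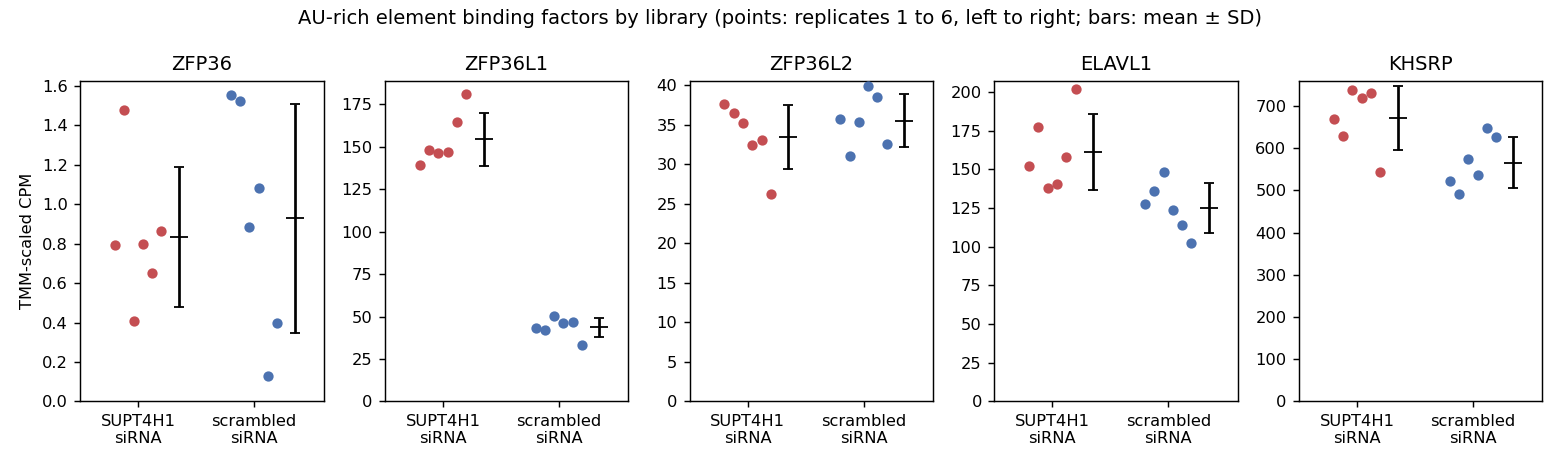
TMM-scaled CPM of ZFP36, ZFP36L1, ZFP36L2, ELAVL1 and KHSRP in each library (points, replicates 1 to 6 from left to right; red SUPT4H1 siRNA, blue scrambled siRNA), with the mean and SD of each group beside them. The groups lie apart in the ZFP36L1 panel (139 to 181 CPM with SUPT4H1 siRNA and 33.3 to 50.4 CPM with scrambled siRNA) and overlap in the other 4.

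With the ZFP36L1 difference, the makeup of the family mRNA pool differed between the groups. The summed CPM of ZFP36, ZFP36L1 and ZFP36L2 was 189 ± 12.2 with SUPT4H1 siRNA and 80.0 ± 8.23 with scrambled siRNA (SD, n = 6 each), and the libraries did not overlap (177 to 208 CPM with SUPT4H1 siRNA and 66.3 to 86.9 CPM with scrambled siRNA). ZFP36L1 held 81.7% ± 3.06 of that sum in the SUPT4H1 libraries and 54.3% ± 2.73 in the scrambled libraries. ZFP36L2 held 17.9% ± 3.01 with SUPT4H1 siRNA and 44.5% ± 3.00 with scrambled siRNA. ZFP36 held 0.442% ± 0.192 with SUPT4H1 siRNA and 1.16% ± 0.739 with scrambled siRNA (SD, n = 6 each). With scrambled siRNA the family mRNA was thus split between ZFP36L1 and ZFP36L2, and with SUPT4H1 siRNA most of it was ZFP36L1. The ratio of ZFP36L1 to ZFP36L2 was 3.70 to 6.91 with SUPT4H1 siRNA and 1.02 to 1.42 with scrambled siRNA. Capture of 3′ ends can differ from gene to gene, so these shares compare the groups and are not molar amounts.

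**Figure D2:**
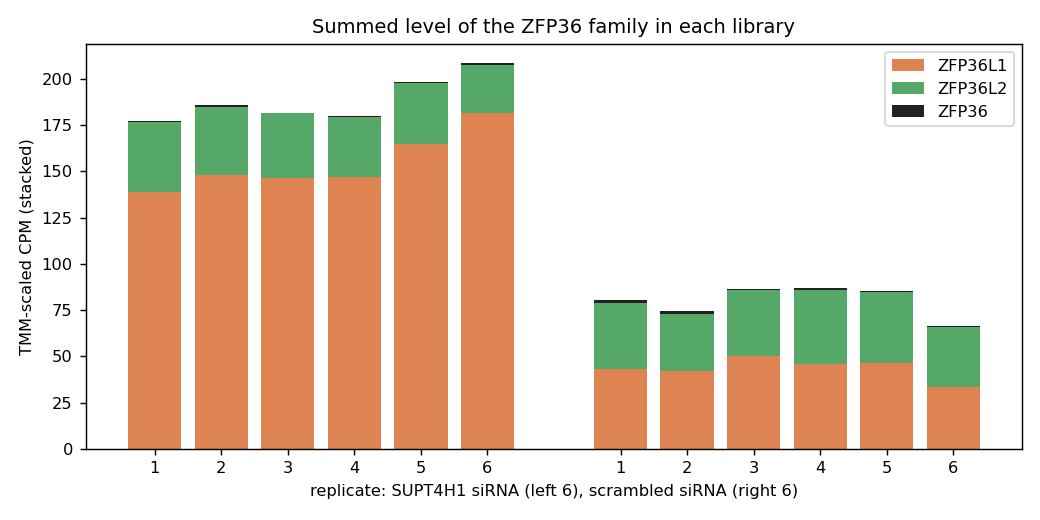
Stacked TMM-scaled CPM of ZFP36L1, ZFP36L2 and ZFP36 in each library, SUPT4H1 siRNA replicates 1 to 6 on the left and scrambled siRNA replicates 1 to 6 on the right. The columns reach 177 to 208 CPM with SUPT4H1 siRNA and 66.3 to 86.9 CPM with scrambled siRNA, with similar ZFP36L2 segments in both groups.

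ELAVL1, which competes with decay factors for AU-rich sequence and protects many of its targets, was somewhat higher with SUPT4H1 siRNA in relative abundance. With the spike-in scaling given further on, its log2 fold change was below 0 but not called. It lies on chromosome 19 from 7958579 to 8005659 on the minus strand (ENSG00000066044), where the antisense gene AC010336.6 overlaps it. Without a stated strand setting for the counting, tags of both cannot be told apart. Its level was 138 to 202 CPM (median 155) with SUPT4H1 siRNA and 102 to 148 CPM (median 126) with scrambled siRNA. The groups overlapped: 2 of the SUPT4H1 libraries, at 138 and 140.3 CPM, lay below the highest scrambled library. The means were 161 ± 24.6 CPM with SUPT4H1 siRNA and 125 ± 16.2 CPM with scrambled siRNA (SD, n = 6 each), a 1.29-fold difference with a relative log2 fold change of 0.36 (SE 0.10). Replicate 6 was again the highest SUPT4H1 library, and without it the value was 0.26.

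KHSRP, the member with the most tags, was likewise higher in relative abundance with SUPT4H1 siRNA. With spike-in scaling its log2 fold change was below 0 but not called. It lies on chromosome 19 from 6413348 to 6424794 on the minus strand (ENSG00000088247). Levels were 544 to 738 CPM (median 694) with SUPT4H1 siRNA and 490.3 to 647 CPM (median 555) with scrambled siRNA, and the groups overlapped. Here SUPT4H1 replicate 6 was the lowest library of its group. The means were 671 ± 74.8 CPM with SUPT4H1 siRNA and 566 ± 61.3 CPM with scrambled siRNA (SD, n = 6 each), a 1.19-fold difference with a relative log2 fold change of 0.25 (SE 0.09), or 0.27 without replicate 6.

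Levels of ELAVL1 and KHSRP relative to the ZFP36 family sum also differed between the groups. ELAVL1 tags per tag of the ZFP36 family numbered 0.852 ± 0.0910 with SUPT4H1 siRNA and 1.57 ± 0.180 with scrambled siRNA (SD, n = 6 each), with no overlap between libraries. KHSRP tags per family tag numbered 3.58 ± 0.533 with SUPT4H1 siRNA and 7.15 ± 1.22 with scrambled siRNA, likewise without overlap. The ratio of KHSRP to ELAVL1, neither of which belongs to the family, was 4.29 ± 1.00 with SUPT4H1 siRNA and 4.62 ± 1.03 with scrambled siRNA, and there the groups overlapped. The ratios to the family sum contain the ZFP36L1 difference and are not independent of it.

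Of the 4 members tested, 3 were called as risen in relative abundance (ZFP36L1, ELAVL1 and KHSRP) and 0 as fallen, beside 20.3% and 19.8% of all genes. For ZFP36L1 the libraries of the groups did not overlap, as for 20.2% of all genes tested. Nothing is read from these counts, since the members were picked on this contrast.

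A fixed volume of ERCC RNA standards, mix 2 in the SUPT4H1 group and mix 1 in the scrambled group, went into every lysate of 1000000 cells, which allows a scaling that does not assume constant total mRNA. Each library was divided by its counts of subgroup B, whose standards have the same nominal amount in both mixes. Which standards belong to that subgroup was taken from general knowledge of the product, and mix and group coincide. With this scaling the median log2 fold change of all 13820 genes was −0.82, which is 56.7% of the scrambled level. Fewer cells in a lysate and less RNA per cell cannot be told apart in such values. Against that background 59.3% of genes were called, 0.304% (42 genes) as risen and 59% as fallen.

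ZFP36L1 remained higher with SUPT4H1 siRNA under spike-in scaling. It ran from 27.9 to 102 tags per 1000 tags of subgroup B with SUPT4H1 siRNA and from 16.9 to 39.9 with scrambled siRNA. On this scale the groups overlapped, as they did for all members and for all but 8.6% of the genes tested: SUPT4H1 replicates 1 and 3 (33.6 and 27.9) lay below scrambled replicate 4 (39.9). Its log2 fold change on the spike-in scale was 1.03 (SE 0.32), and 20 of 13820 genes had a higher one. It depended on single libraries: it was 0.71 without SUPT4H1 replicate 5, whose value of 102 stands far above the others of its group, and 1.20 without scrambled replicate 4. The family sum was 62.5 ± 31.4 tags per 1000 subgroup B tags with SUPT4H1 siRNA and 46.5 ± 14.8 with scrambled siRNA (SD, n = 6 each), with overlapping groups. These means also depended on single libraries: SUPT4H1 replicate 5 was at 123 and scrambled replicate 4 at 75.3, each far above the others of its group.

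ZFP36L2, ELAVL1 and KHSRP had log2 fold changes below 0 on that scale, as most genes did, though ELAVL1 and KHSRP were not called. ZFP36L2 had 6.70 to 20.5 tags per 1000 subgroup B tags with SUPT4H1 siRNA and 15.1 to 34.5 with scrambled siRNA, a log2 fold change of −0.93 (SE 0.32). ELAVL1 had 26.2 to 97.7 with SUPT4H1 siRNA and 52.0 to 107 with scrambled siRNA (−0.44, SE 0.31). KHSRP had 141 to 452 with SUPT4H1 siRNA and 245 to 465 with scrambled siRNA (−0.55, SE 0.31). Values of the 2 groups overlapped for each of these 3 genes. Without SUPT4H1 replicate 5 the values were −1.20 for ZFP36L2, −0.70 for ELAVL1 and −0.89 for KHSRP. With the standards of ERCC subgroup C in place of B they were −0.61 for ZFP36L2, −0.13 for ELAVL1 and −0.23 for KHSRP, while ZFP36L1 was at 1.35 and the median of all genes at −0.51. ZFP36L2 was thus close to the median of all genes of −0.82, while ELAVL1 and KHSRP lay between that median and 0. Of the 4 members tested, 1 was called as risen (ZFP36L1) and 1 as fallen (ZFP36L2), beside 0.304% and 59% of all genes. Nothing is read from these counts either. ZFP36, fitted without the filter on low counts, was at −1.01 (SE 0.49), and again no direction is given for it.

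**Figure D3:**
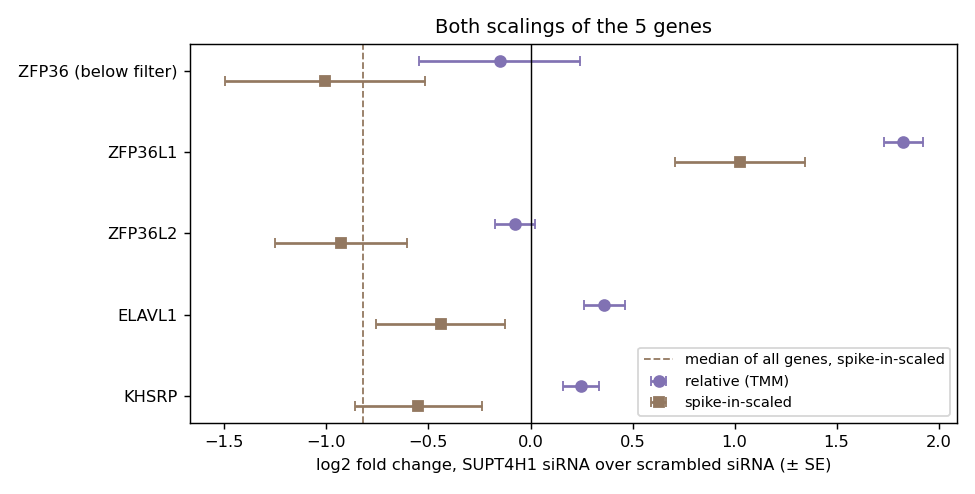
Log2 fold change, SUPT4H1 siRNA over scrambled siRNA, with its SE for the 5 genes, relative (circles) and spike-in-scaled (squares); the dashed line is the spike-in-scaled median of all genes at −0.82. ZFP36L1 lies right of 0 under both scalings (1.83 and 1.03), and the other 4 genes lie left of 0 with spike-in scaling.

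The machinery that acts with these proteins was examined through 4 lists of genes chosen from general knowledge, with earlier results of these data known. Among 13 tested genes of other AU-rich binding proteins (15 listed), 6 rose and 2 fell in relative abundance, with a median log2 fold change of 0.16. With spike-in scaling 0 rose and 5 fell (median −0.66). Among all genes tested 20.3% rose and 19.8% fell in relative abundance, and 59% fell with spike-in scaling. HNRNPD (AUF1), a decay factor with several isoforms, had 369 to 438 CPM with SUPT4H1 siRNA and 304 to 331 CPM with scrambled siRNA (log2 0.34, SE 0.07). The poly(C)-binding proteins moved apart: PCBP1 was at 223 to 273 CPM in SUPT4H1 libraries and 171 to 202 CPM in scrambled libraries (0.36), and PCBP2 was at 352 to 389 CPM in SUPT4H1 libraries and 467 to 533 CPM in scrambled libraries (−0.45, edgeR adjusted p = 2.30e-05). FUBP1, a relative of KHSRP with the same kind of KH domains, was at 83.3 to 131 CPM in SUPT4H1 libraries and 64.5 to 87.9 CPM in scrambled libraries (0.42), with overlapping groups and the highest value in SUPT4H1 replicate 6 (0.31 without it). PCBP1 and PCBP2 share sequence, so their tags could be exchanged to some degree.

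Decay partners of the ZFP36 proteins, the CCR4-NOT complex with decapping, cap-binding and poly(A)-binding factors, showed no common direction. Of 23 tested (24 listed), 3 rose and 4 fell, and the median was 0.01, close to that of all genes. With spike-in scaling 0 rose and 14 fell (median −0.81). Over all genes 40.1% were called in relative abundance and 59% fell with spike-in scaling. CNOT1, the scaffold that the family proteins touch directly, was at 71.4 to 89.1 CPM with SUPT4H1 siRNA and 80.9 to 102 CPM with scrambled siRNA (log2 −0.26, SE 0.08). The catalytic subunit CNOT6L was at 30.3 to 38.2 CPM in SUPT4H1 libraries and 42.4 to 51.3 CPM in scrambled libraries (−0.37), while the accessory subunit CNOT11 was at 127 to 167 CPM in SUPT4H1 libraries and 81.3 to 109 CPM in scrambled libraries (0.54, or 0.46 without SUPT4H1 replicate 6, edgeR adjusted p = 2.91e-05). XRN1, the exonuclease that degrades decapped mRNA, was at 18.5 to 40.7 CPM in SUPT4H1 libraries and 11.1 to 15.7 CPM in scrambled libraries (0.80), with its highest value in SUPT4H1 replicate 6. Without that library XRN1 stood at 0.55, and the list then had 5 risen and 5 fallen genes.

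KHSRP works through the exosome and PARN, and of these 12 genes 2 rose and 3 fell, with a median of −0.04. With spike-in scaling 0 rose and 9 fell (median −0.86), beside 0.304% risen and 59% fallen over all genes (median −0.82). The share of all genes called in relative abundance, 40.1%, is close to that of these 12. EXOSC8, a subunit of the exosome ring, was at 52.7 to 72.1 CPM with SUPT4H1 siRNA and 86.8 to 114 CPM with scrambled siRNA (log2 −0.70, SE 0.09, edgeR adjusted p = 4.59e-06). EXOSC7, another ring subunit, was at 54.2 to 67.1 CPM in SUPT4H1 libraries and 34.9 to 45.8 CPM in scrambled libraries (0.55). The cap subunits EXOSC2 (−0.41) and EXOSC3 (−0.32) fell. PARN itself averaged 36.3 CPM with SUPT4H1 siRNA and 32.4 CPM with scrambled siRNA (0.16) and did not pass the test.

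Of 17 genes for kinases, phosphatases and 14-3-3 proteins that act on the family, 7 rose and 1 fell, beside 20.3% risen and 19.8% fallen over all genes, with a median of 0.15 (−0.64 spike-in-scaled). AKT2, a kinase of the AKT family, had the smallest adjusted p: it was at 438 to 531 CPM with SUPT4H1 siRNA and 208 to 245 CPM with scrambled siRNA (log2 1.06, SE 0.07, edgeR adjusted p = 9.42e-10). YWHAZ (14-3-3 zeta) was at 215 to 261 CPM in SUPT4H1 libraries and 117 to 144 CPM in scrambled libraries (0.84), and PPP2R1A, the scaffold subunit of the phosphatase PP2A, was at 70.4 to 79.1 CPM in SUPT4H1 libraries and 44.9 to 58.5 CPM in scrambled libraries (0.50, or 0.47 without SUPT4H1 replicate 6). For these 3 genes, picked by adjusted p, the groups did not overlap, as for 20.2% of all genes tested. MAPK3 (ERK1) fell, with 44.7 to 54.7 CPM in SUPT4H1 libraries and 52.7 to 87.1 CPM in scrambled libraries (−0.54). With spike-in scaling 0 of the 17 were called as risen and 8 as fallen (0.304% and 59% of all genes), and AKT2 stood at 0.23.

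Genes reported as targets of the ZFP36 proteins in other work went in both directions, with more risen than fallen in relative abundance. This list and that of ELAVL1 targets below were also fixed with earlier results of these data known. Nothing is therefore read from their counts. Of 40 listed, 24 passed the filter, and the cytokine genes TNF, CSF2, IL2, IL6 and CXCL8 were among those that did not. Of the 24, 12 rose and 4 fell in relative abundance, beside 20.3% risen and 19.8% fallen among all genes, and their median was 0.43. Spike-in-scaled, 1 rose and 9 fell, beside 0.304% and 59% of all genes, with a median of −0.43. The word UAUUUAU was in the 3′ UTRs of 20 of the 24 (83.3%), beside 36.6% of the 10073 genes. The list was drawn up as reported targets with AU-rich 3′ UTRs, so a high share is built in. Of those with the word 9 rose and 4 fell, beside 25.1% and 18.6% of such genes among the 10073. Of those without it 3 rose and 0 fell, beside 22.5% and 21.8%.

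The 4 targets with the smallest adjusted p all hold the word, and 1 stretch of each UTR is shown here, with TATTTAT in capitals (in HIF1A a pair of overlapping copies), so that targets that moved up and down can be set side by side.

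IER3, chr6:30743656-30743678, minus strand: ctaattaaTATTTATatgtattt

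CDK6, chr7:92607655-92607677, minus strand: atgtatgtTATTTATttctgaat

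HIF1A, chr14:61747349-61747371, plus strand: caccttttTATTTATTTATtttt

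VEGFA, chr6:43786289-43786311, plus strand: ttatcattTATTTATtggtgcta

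IER3, an immediate early gene that affects apoptosis, was at 331 to 401 CPM with SUPT4H1 siRNA and 173 to 199 CPM with scrambled siRNA (log2 0.98, SE 0.07, edgeR adjusted p = 2.07e-09). CDK6, a kinase of the G1 phase, was at 62.7 to 102 CPM in SUPT4H1 libraries and 25.7 to 35.6 CPM in scrambled libraries (1.23, or 1.10 without SUPT4H1 replicate 6). HIF1A, the oxygen-sensing transcription factor, was at 37.9 to 48.5 CPM in SUPT4H1 libraries and 19.6 to 25.2 CPM in scrambled libraries (0.96). VEGFA, an angiogenic growth factor and a textbook target of the family, moved the other way, with 9.74 to 16.0 CPM in SUPT4H1 libraries and 24.6 to 31.0 CPM in scrambled libraries (−1.08, SE 0.11, or −1.16 without SUPT4H1 replicate 6). The groups did not overlap for any of the 4, as for 20.2% of all genes tested. Since the 4 were picked by smallest adjusted p, nothing is read from that separation. IER3, CDK6 and HIF1A rose and VEGFA fell, with 3 or 4 words each in their UTRs. Among the remaining targets, chosen here after their values were seen, DUSP1 (3 words, log2 0.01) and PIM1 (4 words, −0.08) did not pass the test. E2F1 (3 words) fell by 0.75 on the log2 scale.

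ELAVL1 targets overlapped those of the ZFP36 proteins in 9 genes, which make up 22.5% of the 40 and 36% of the 25 ELAVL1 targets. Of the 25, all tested, 12 rose and 6 fell (median 0.35), beside 20.3% risen and 19.8% fallen over all genes. With spike-in scaling 1 rose and 11 fell (median −0.52), beside 0.304% and 59%. CTNNB1 (β-catenin) was at 239 to 321 CPM with SUPT4H1 siRNA and 122 to 150.3 CPM with scrambled siRNA (log2 1.14, SE 0.08, edgeR adjusted p = 2.07e-09). HMOX1, which breaks down heme, was at 29.6 to 49.8 CPM in SUPT4H1 libraries and 12.8 to 19.6 CPM in scrambled libraries (1.31, or 1.21 without SUPT4H1 replicate 6). The mitotic cyclin gene CCNA2 was at 60.0 to 70.9 CPM in SUPT4H1 libraries and 106 to 122 CPM in scrambled libraries (−0.76). Of the 23 list genes named by rule, 15 overlap an annotated gene on the opposite strand, CTNNB1, CCNA2, VEGFA, HIF1A, IER3 and CDK6 among them, and their values are uncertain to that extent.

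**Figure D4:**
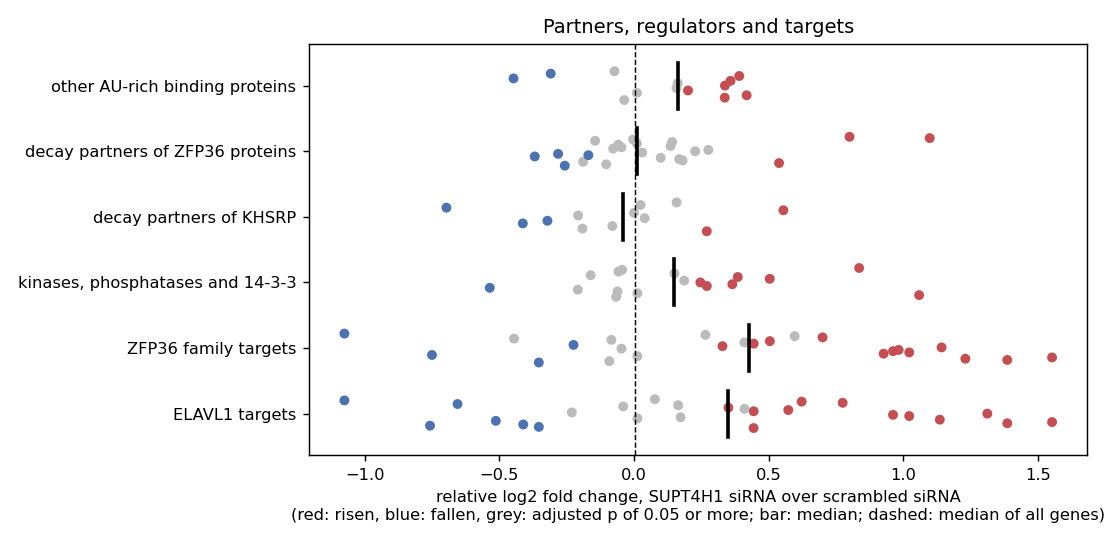
Relative log2 fold change, SUPT4H1 siRNA over scrambled siRNA, of each tested gene of the 6 lists (red risen, blue fallen, grey not called; black bar, median of the list; dashed line, median of all genes). Medians run from −0.04 for the decay partners of KHSRP to 0.43 for the ZFP36 family targets, and every list holds genes on both sides of 0.

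Whether genes with more AU-rich words changed differently was asked over all expressed genes, with the 5 members left out of the fit. Without any adjustment the medians of the relative log2 fold change moved little with the number of words: 0.00 in 6385 genes with 0 words, 0.03 in 2098 genes with 1, 0.05 in 861 genes with 2 and 0.07 in 729 genes with 3 or more. These classes also differed in UTR length, whose median was 835 bases in genes with 0 words and 4709 bases in genes with 3 or more. Among genes of similar UTR length the difference between those with and without the word was small and went in both directions. In the middle quintile of UTR length the median was −0.04 in 663 genes with the word and 0.02 in 1352 genes without it. In the quintile of the longest UTRs it was 0.09 in 1456 genes with the word and 0.07 in 559 genes without it. Genes are not independent replicates, so these medians are a description.

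For a test over libraries, the change of each library relative to the mean of the scrambled libraries was regressed across genes on the number of UAUUUAU words (at most 5 counted), UTR length and GC content. The slope per word was −0.0039 ± 0.0061 in SUPT4H1 libraries and 0.0000 ± 0.0037 in scrambled libraries on the log2 scale (SD, n = 6 each), the scrambled mean being 0 by construction. The difference of −0.0039 log2 per word was within the spread of the libraries (two-sided exact permutation test with 6 against 6, p = 0.2056), and its 95% interval ran from −0.0098 to 0.0026. Of the 6 SUPT4H1 libraries 5 lay below the scrambled mean, and replicate 6 lay above it at 0.0072. Without that library the difference was −0.0062, with an exact permutation p of 0.0195, so the call depends on 1 library. With the longer word UUAUUUAUU the difference was −3.9e-05 (exact permutation p = 0.9957).

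**Figure D5:**
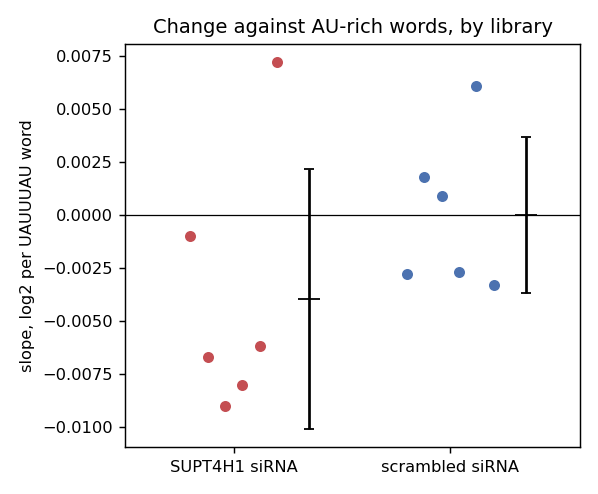
Slope of the change in each library on the number of UAUUUAU words in the 3′ UTR (log2 per word, adjusted for UTR length and GC content; red SUPT4H1 siRNA, blue scrambled siRNA; bars, mean ± SD). SUPT4H1 libraries lie between −0.0090 and 0.0072 and scrambled libraries between −0.0033 and 0.0061, and the groups overlap.

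The genes whose levels followed ZFP36L1 most closely over the 12 libraries were ranked by Pearson correlation of log2 CPM among 10093 genes with at least 5 CPM, as a description without a p. TTC19, a factor of mitochondrial complex III assembly (r = 0.993), JARID2, a subunit of Polycomb complexes (0.992), the endoplasmic reticulum cargo receptor gene SURF4 (0.991), the exonuclease gene ISG20L2 (0.989) and the RNA helicase gene MOV10 (0.989, the last also with a relative log2 fold change of 1.82) came first. Both groups of libraries enter this ranking, so a gene with a large rise beside its spread within groups scores high. After each group's mean was subtracted, other genes led: JADE1 (0.909), RAB11FIP1 (0.860), TBC1D9 (0.857), PIGX (0.853) and TCEAL9 (0.847), none of them among the first genes of the other ranking. They were picked as the highest of 10093 genes over 12 libraries, where the median r was 0.01. Nothing is read from the size of their correlations. SUPT4H1 replicate 6, the highest ZFP36L1 library, enters both rankings, and its part in them was not tested. TTC19, JARID2, ISG20L2, MOV10, JADE1, RAB11FIP1, TBC1D9 and PIGX overlap annotated genes on the opposite strand. Their values are uncertain to that extent.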

How the data were processed

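The authors deposited 1 table of raw counts per gene for 12 libraries, with 57704 genes, 92 ERCC standards and a reporter row (GFP) that was left out of library sizes and tests. FastQC 0.11.5, STAR, MultiQC, R 3.4.3 and build GRCh38 appear in the submitters' processing notes. Which tool, annotation and strand setting the counting used is not given in the sources used here. Libraries were made from 200 ng of RNA with an integrity number of 9.6 to 10, per the labels' protocols. In 30 pairs of libraries within a group, all differed beyond sampling noise (chi-square over degrees of freedom 4.42 to 32.1).

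Counts were tested with edgeR 4.0.16 in R 4.3.3 (robust quasi-likelihood fit, no covariates) after filterByExpr, which left 13820 genes, with TMM scaling or scaling by 23 ERCC standards of subgroup B, and Benjamini-Hochberg adjustment over all genes (threshold 0.05). The SE is the log2 fold change divided by the square root of the F statistic. Depth sets the precision, which is low for rare transcripts such as ZFP36. After centring on subgroup B, subgroups A, C and D had median log2 differences of −2.03, 0.59 and 0.99, against nominal values of −2, 0.58 and 1. These are medians of 5, 7 and 7 standards, and scaling by the summed counts of subgroup C instead of B moved the median of all genes to −0.51, against −0.82. UTRs and positions are from GENCODE release 29, taking for each gene the transcript with the most downstream end (ends within 25 bases treated as equal, then the longest coding region). Scripts were tested on simulated data.

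The members and lists were chosen with earlier results of these data known. Named genes are the 5 members, SUPT4H1, up to 4 called genes per list by adjusted p and the 5 genes most like ZFP36L1 by either correlation. Alternatives were DESeq2 1.42.0, limma-voom (limma 3.58.1), other size factors, filters and ERCC standards, a replicate block, RNA integrity as a covariate, and leaving out each library.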

Additional observations from a re-analysis of the deposited data

Results flagged for a closer look

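Dixon's ratio (gap to the nearest library over the range, 95% critical value 0.625) singled out an extreme library in 5 of 34 groups of 6 values, against about 1.7 by chance. All 5 are on the spike-in scale (tags per 1000 tags of ERCC subgroup B), and each is the highest library of its group. With SUPT4H1 siRNA these were KHSRP at 452, ZFP36L1 at 102 and SUPT4H1 itself at 14.4, all in replicate 5. With scrambled siRNA they were ZFP36L1 at 39.9 and ZFP36L2 at 34.5, both in replicate 4. Those libraries had the fewest subgroup B tags of their groups, 14899 in SUPT4H1 replicate 5 and 8555 in scrambled replicate 4, and the part of this in the values was not tested. In CPM no member was singled out in either group.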

How the results depend on the processing

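The relative log2 fold change of ZFP36L1 was between 1.75 and 1.87 under 19 alternatives, that of ZFP36L2 between −0.13 and −0.04, that of ELAVL1 between 0.26 and 0.42 and that of KHSRP between 0.18 and 0.29. Spike-in-scaled, ZFP36L1 was between 0.71 and 1.35 under 14 alternatives, ZFP36L2 between −1.20 and −0.61, ELAVL1 between −0.70 and −0.13 and KHSRP between −0.89 and −0.23. ZFP36 in relative abundance was between −0.38 and −0.01 under 8. All 23 list genes named by rule were called under all 19 alternatives. They were picked as called genes with the smallest adjusted p, and the alternatives refit the same libraries. Nothing is therefore read from that count. Relative calls over all genes numbered 4641 to 5901, and 5042 to 5901 with each library left out. Spike-in-scaled calls were 8201, but 2300 with ERCC subgroup C, and 5662 (without scrambled replicate 4) to 12223 (without SUPT4H1 replicate 5) with each library left out; the cause was not tested. The AU-rich word slope reversed to 0.018321 without the UTR length and GC terms (exact permutation p = 0.2446), and lay between −0.006174 and −0.002717 with each library left out. Fallen ZFP36 targets numbered 2 to 4 and fallen decay partners of the ZFP36 proteins 2 to 5. Same-numbered libraries of the groups did not deviate together (correlations of −0.34 to 0.08), so no shared effect by number was seen. These correlations cannot show whether such libraries were handled together. With the replicate block 4808 genes were called in relative abundance and 9373 with spike-in scaling. The slope was then −0.003946 (exact sign-flip permutation p = 0.3438). Depth limits what can be said of ZFP36.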

Other observations

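An earlier scan of these same fold changes had picked the hexamers AGCCTT and ACATCA in 3′ UTRs, so their presence in the members is a description and no independent evidence. On the transcribed strand, the ZFP36L1 UTR held 1 copy of each, shown with the hexamer in capitals.

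ZFP36L1, chr14:68789208-68789229, minus strand: ccggcttaAGCCTTaagtgcca

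ZFP36L1, chr14:68788378-68788399, minus strand: gtcactgcACATCAatataaaa

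ELAVL1 held 7 and 1 copies, ZFP36L2 and KHSRP held 1 and 0, and ZFP36 held 0 of both. Of the 10073 UTRs, 41.2% held AGCCTT, 32.1% held ACATCA and 19.5% held both. The 1966 genes with both had a median relative log2 fold change of 0.11 and a median UTR length of 3805 bases, against 0.02 and 1343 bases over all 10073 genes.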
